A study of Homo sapiens with 4 samples.

Results

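MHC class I molecules and the genes that load them with peptide were followed in SU-DHL-2 cells, an established line of human diffuse large B-cell lymphoma, after exposure to Spautin-1, which blocks the deubiquitinases USP10 and USP13 and thereby autophagy. The 9 genes were taken by name from the count table of 61267 genes: the heavy chains HLA-B, HLA-C, HLA-E and HLA-F, the light chain B2M, the transporter subunits TAP1 and TAP2, the loading factor TAPBP and the transactivator NLRC5. All 9 passed the filter on low counts. Both groups were labelled wild type, with lymph node as source. Of the 4 libraries, 2 came from cells given vehicle alone and 2 from cells given 10 µM Spautin-1 for 36 h; no time is given in the labels for vehicle. Only this 1 line, dose and time were measured, and the labels do not say that replicates came from separate cultures, so p-values describe the spread between these libraries, which may be technical.

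Library totals ran from 34115420 to 38362526 counts. All 10 B-cell markers examined (among them MS4A1, PAX5 and CD79A) had a mean of at least 1 CPM, the read count scaled to the library's size. Their summed level was 759 to 840 CPM in vehicle and 1098 to 1140 CPM in Spautin-1, and that of 4 plasma-cell markers was 441 to 711 and 895 to 1071 CPM. Only 2 of these 4, XBP1 and PRDM1, reached a mean of 1 CPM, while SDC1 and TNFRSF17 stayed below 1 CPM. XBP1 was at 422 and 691 CPM in vehicle and 781 and 943 CPM in Spautin-1. PRDM1 was at 18.4 and 19.0 CPM in vehicle and 114 and 127 CPM in Spautin-1. The part of these differences in the results below was not tested. None of the 19 markers of T, NK, myeloid or stromal cells reached a mean of 1 CPM, and in each of these classes the markers summed to at most 1.49 CPM in any library. In bulk RNA, fewer cells of a kind and less RNA per cell cannot be told apart.

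An MHC class I molecule is a heavy chain paired with β2-microglobulin and a short peptide, displayed at the surface for inspection by CD8+ T cells and NK cells. Peptides cut by the proteasome are pumped into the endoplasmic reticulum by the TAP transporter, and tapasin holds the empty heavy chain at TAP until a peptide binds well. NLRC5, acting with RFX, CREB and NF-Y factors on a shared promoter module, raises transcription of heavy chains, B2M and TAP1, while interferon and NF-kB factors act on neighbouring elements. Loss of class I display is common in diffuse large B-cell lymphoma.

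HLA-B and HLA-C are shown first because they fell together and their promoters are closely alike. The RefSeq table (GRCh38.p14, 250 bases before to 50 after the start) holds promoters for 7 of the 9 genes, and not for HLA-E and NLRC5. The B2M window is printed beside them, since B2M partners both proteins and did not fall. Capitals mark every match, on either strand, to CCAAT (bound by NF-Y), TGACG (the core of the CREB element), GAAANNGAA or GAANNGAAA (both orders of the interferon response core) and GGGNNTTCC (an NF-kB core); overlapping matches run together. GAANNGAAA was added after the promoters were seen.
HLA-B promoter, chr6:31357130-31357429, minus strand: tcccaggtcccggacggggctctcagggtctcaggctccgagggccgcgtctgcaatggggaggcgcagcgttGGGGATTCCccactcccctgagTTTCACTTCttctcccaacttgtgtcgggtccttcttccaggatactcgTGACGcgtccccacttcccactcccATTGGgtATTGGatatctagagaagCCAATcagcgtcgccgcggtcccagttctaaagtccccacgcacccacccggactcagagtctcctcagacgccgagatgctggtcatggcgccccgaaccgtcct
HLA-C promoter, chr6:31272043-31272342, minus strand: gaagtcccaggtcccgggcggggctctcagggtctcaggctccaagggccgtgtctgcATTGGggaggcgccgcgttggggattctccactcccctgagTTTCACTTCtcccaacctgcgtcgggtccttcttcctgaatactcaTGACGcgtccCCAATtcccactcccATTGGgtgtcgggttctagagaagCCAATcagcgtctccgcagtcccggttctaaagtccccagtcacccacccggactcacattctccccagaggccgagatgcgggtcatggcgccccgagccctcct
B2M promoter, chr15:44711267-44711566, plus strand: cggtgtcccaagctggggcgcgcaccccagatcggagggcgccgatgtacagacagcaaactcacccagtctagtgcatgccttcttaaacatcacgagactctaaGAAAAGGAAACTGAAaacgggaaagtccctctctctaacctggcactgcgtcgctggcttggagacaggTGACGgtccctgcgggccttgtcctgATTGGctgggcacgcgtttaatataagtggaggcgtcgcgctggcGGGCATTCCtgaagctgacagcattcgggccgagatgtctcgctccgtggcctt

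The HLA-B and HLA-C windows were identical at 88.5% of aligned positions, against 47.6% between HLA-B and B2M. The window of HLA-F was also close, at 79.7% to HLA-B and 78.5% to HLA-C. HLA-F was not called, but with 12 to 16 reads per library a change was not detectable. The HLA-B and HLA-C windows both held TGACG, at -106 and -105 counted from the start, followed by CCAAT in either orientation nearer the start. The B2M window had the same order, with TGACG at -75 and CCAAT on the other strand at -49. HLA-F held CCAAT but no TGACG. HLA-B matched GGGNNTTCC once, at -177, and HLA-C did not match it. Of all 27305 promoter windows of the same length, CCAAT is found in 35.7%, TGACG in 25.0%, GAAANNGAA in 8.29%, GAANNGAAA in 7.86% and GGGNNTTCC in 6.60%. These letters describe the reference genome; HLA alleles of SU-DHL-2 were not analysed here.

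Of the 9 genes, HLA-E and NLRC5 were higher and HLA-B and HLA-C were lower after Spautin-1 (edgeR's quasi-likelihood test; genes with a p under 0.05 after Benjamini-Hochberg adjustment over 18368 genes are referred to as called). The other 5 were not called. Among all genes tested 22.0% were called, 11.5% higher and 10.5% lower, so 4 of 9 is a count from a small group and not a result about the family as such. The median log2 fold change of the 9 was 0.09, beside -0.01 for all genes tested. In 7 of the 9 the Spautin-1 libraries lay entirely on one side of the vehicle libraries, a separation shown by 61.4% of all genes. An exact permutation test of 2 libraries against 2 cannot go below p = 0.333, so no single gene could pass by that route.

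**Figure D1:**
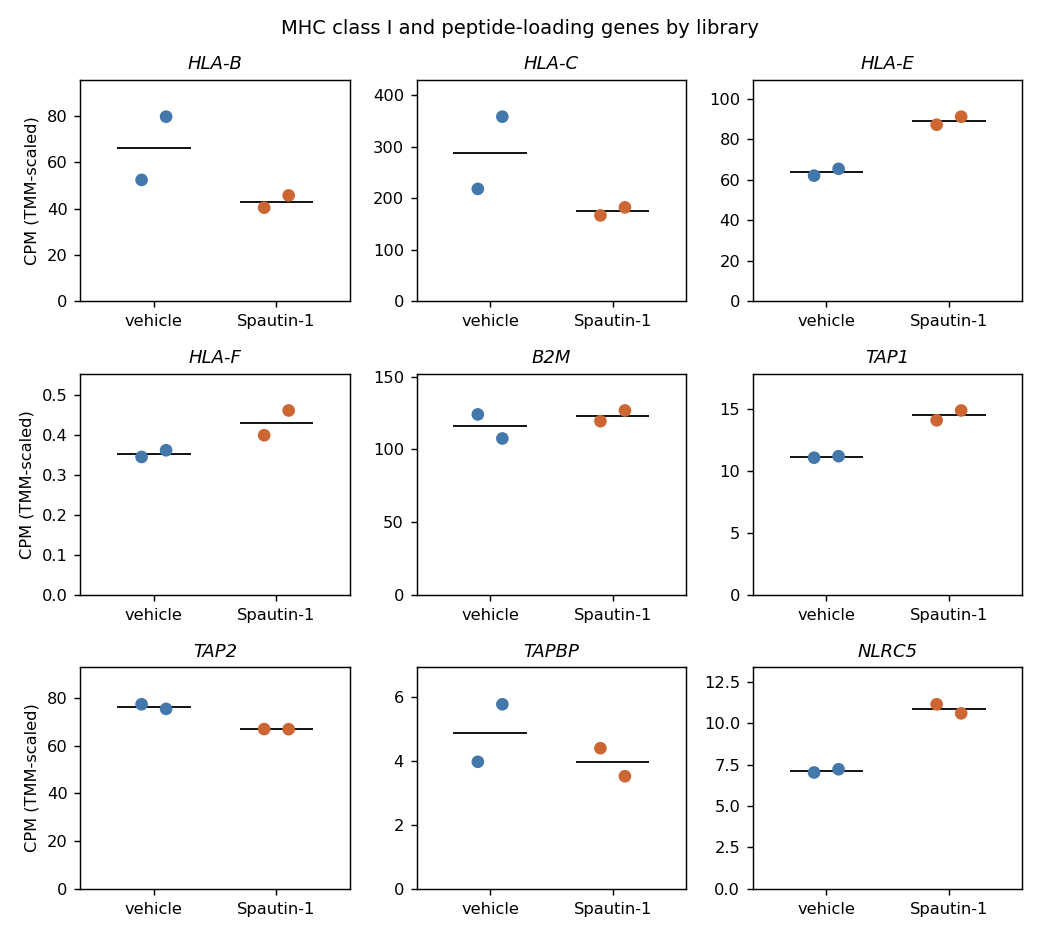
Level of each gene in the 4 libraries, in TMM-scaled CPM on linear axes that start at 0; points are libraries and bars are group means (n = 2). The vehicle libraries lie far apart in HLA-B and HLA-C and close together in HLA-E, TAP1, TAP2 and NLRC5.

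HLA-C (chromosome 6, 31268749 to 31272130, GRCh38), a classical heavy chain recognised by inhibitory receptors of NK cells, was the most abundant of the group. It stood at 218 and 358 CPM in vehicle and at 167 and 182 CPM in Spautin-1. Both treated libraries were below both vehicle libraries, and the vehicle libraries differed from each other 1.64-fold. The fall was 1.65-fold, or -0.72 ± 0.18 on the log2 scale (SE; adjusted p = 0.012). Its size depended on the vehicle library used: the log2 fold change was -0.32 without vehicle replicate 2 and -1.04 without vehicle replicate 1. No p is given for those fits, whose spread came from the Spautin-1 libraries alone. DESeq2 gave a log2 fold change of -0.72 without a call (adjusted p = 0.14).

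HLA-B (chromosome 6, 31353872 to 31367067), the most polymorphic classical heavy chain, showed the same layout. Its levels were 52.3 and 79.6 CPM in vehicle and 40.4 and 45.7 CPM in Spautin-1. The groups did not overlap, but the gap between them was smaller than the gap between the vehicle libraries. The fold change was 1.53 downward, or -0.62 ± 0.17 on the log2 scale (adjusted p = 0.0235). The log2 fold change was -0.28 without vehicle replicate 2 and -0.89 without vehicle replicate 1. The call was not kept when Spautin-1 replicate 1 was left out (-0.54). HLA-B shares 30.7% of its exonic bases with the pseudogene DHFRP2 on the same strand, where reads are ambiguous whatever the strand setting. DHFRP2 itself had 2 reads over the 4 libraries. Another 14.5% is shared with an unnamed gene on the opposite strand (ENSG00000271581), which had 2933 reads. The sources used here do not say whether counting used strand.

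HLA-E (chromosome 6, 30489509 to 30494194), a non-classical heavy chain that mainly presents leader peptides of other class I chains to NKG2A on NK and T cells, moved the other way. It was at 62.1 and 65.5 CPM in vehicle and at 87.2 and 91.2 CPM in Spautin-1. Replicates were close in both groups, and the groups lay well apart. The rise was 1.40-fold, a log2 fold change of 0.48 ± 0.11 (adjusted p = 0.00915). The value ran only from 0.44 to 0.55 over 16 other settings, although with 1 treated library left the call was lost (adjusted p = 0.0862 without Spautin-1 replicate 1 and 0.145 without replicate 2).

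HLA-F (chromosome 6, 29722775 to 29738528), a non-classical chain that can reach the surface without peptide, was barely detected. It had 12 and 14 reads in vehicle and 15 and 16 in Spautin-1, and a change was not detectable at this depth (log2 fold change 0.28 ± 0.67, adjusted p = 0.811).

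Reads can be misassigned among HLA genes, which resemble one another. In GENCODE 29 transcripts, 2.54% of the 50-base windows of the longest coding HLA-B transcript also occur in transcripts of other genes, 6.71% for HLA-C, 5.13% for HLA-E and 1.70% for HLA-F. Between HLA-B and HLA-C the shared part was 2.00% of the HLA-B windows. Summed, the 4 heavy chains stood at 333 and 504 CPM in vehicle and at 295 and 320 CPM in Spautin-1. The log2 fold change of this sum was -0.45, given without a test. It was -0.12 without vehicle replicate 2 and -0.72 without vehicle replicate 1.

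The make-up of heavy-chain reads does not depend on library scaling. HLA-E supplied 18.6% (95% exact binomial interval 17.9 to 19.4) and 13.0% (12.5 to 13.5) of the reads of the 4 genes in vehicle. In Spautin-1 it supplied 29.6% (28.7 to 30.5) and 28.5% (27.7 to 29.4). HLA-C fell from 65.5% and 71.1% to 56.6% and 57.0%, while HLA-B changed little, from 15.7% and 15.8% to 13.7% and 14.3%. Each HLA-C read was accompanied by 0.284 and 0.183 HLA-E reads in vehicle and by 0.523 and 0.50 in Spautin-1. These intervals cover counting error only, and the vehicle libraries differed by more than them.

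**Figure D2:**
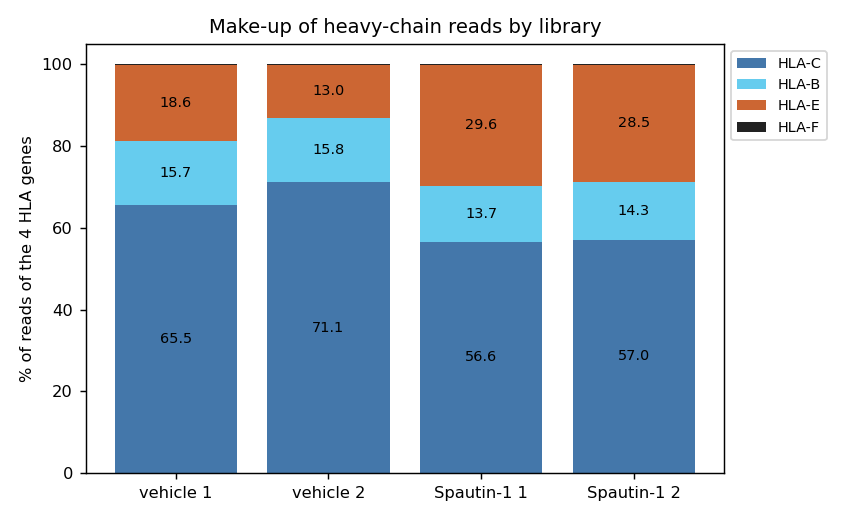
Percentage of the summed reads of HLA-B, HLA-C, HLA-E and HLA-F that each gene took in each library, as stacked bars reaching 100%. HLA-E takes 13.0% to 18.6% in vehicle and 28.5% to 29.6% in Spautin-1; HLA-F is too thin to see.

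B2M (chromosome 15, 44711358 to 44718851) encodes β2-microglobulin, without which no class I heavy chain is stably displayed. Its levels were 124 and 108 CPM in vehicle and 119 and 127 CPM in Spautin-1. The groups overlapped, with a log2 fold change of 0.09 ± 0.11 (adjusted p = 0.628).

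The peptide transporter subunits differed in direction, and neither passed the test. TAP1 (chromosome 6, 32845209 to 32853816) was at 11.1 and 11.2 CPM in vehicle and at 14.1 and 14.9 CPM in Spautin-1. The replicates were tight and the groups separate, at a log2 fold change of 0.38 ± 0.16 (adjusted p = 0.109), and TAP1 was called with an offset for GC content (0.46, adjusted p = 0.0363). TAP2 (chromosome 6, 32821833 to 32838739) was at 77.3 and 75.3 CPM in vehicle and at 66.9 and 66.8 CPM in Spautin-1. These groups were also separate, in the opposite direction (log2 fold change -0.19 ± 0.11, adjusted p = 0.25). TAP2 shares 19.5% of its exonic bases with a gene on the same strand (ENSG00000250264), which had 10425 reads over the 4 libraries, so its count may not be the whole of its mRNA.

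TAPBP (chromosome 6, 33299694 to 33314284), which encodes tapasin, rested on 138 and 223 reads in vehicle and 165 and 122 in Spautin-1. At 3.97 and 5.77 CPM against 4.40 and 3.52 CPM the groups overlapped (log2 fold change -0.30 ± 0.26, adjusted p = 0.449). It was at -0.54 without vehicle replicate 1 and near 0, at -0.00271, without vehicle replicate 2.

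NLRC5 (chromosome 16, 56989485 to 57083531), the class I transactivator, rose. Its levels were 7.03 and 7.22 CPM in vehicle and 11.1 and 10.6 CPM in Spautin-1. Replicates agreed closely in both groups and the groups did not overlap. The rise was 1.53-fold, a log2 fold change of 0.61 ± 0.18 (adjusted p = 0.0278), from 244 and 279 reads to 418 and 367. As for HLA-E, the call was lost with either Spautin-1 library left out (adjusted p = 0.198 without replicate 1 and 0.128 without replicate 2), while the size stayed between 0.56 and 0.75 over 17 other settings. In the same libraries HLA-B and HLA-C fell, HLA-E rose, and B2M and TAP1 were not called.

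**Figure D3:**
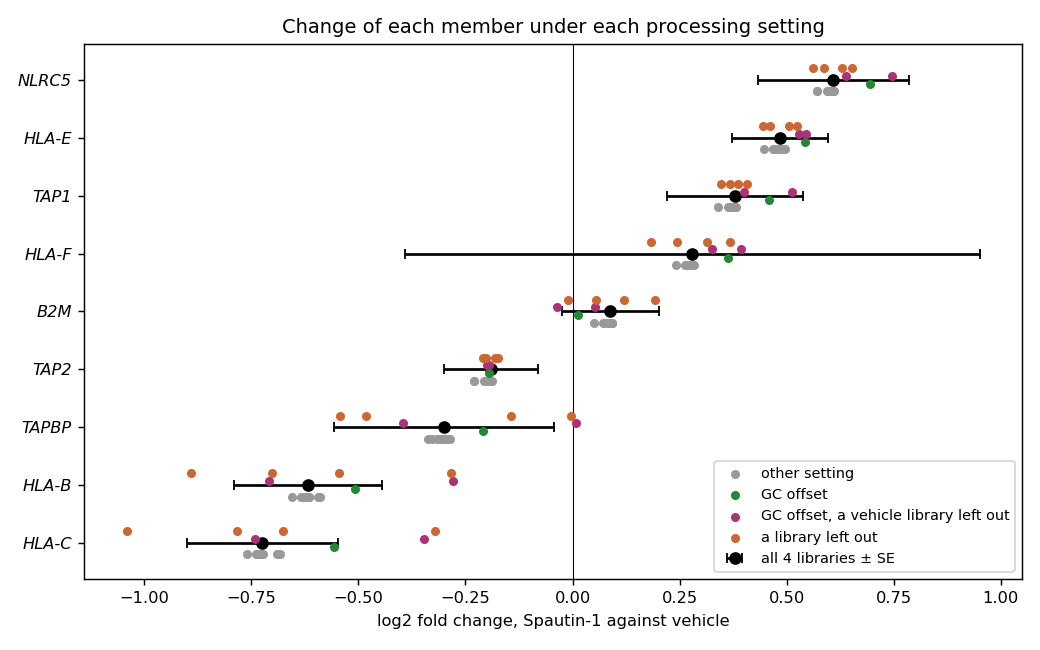
Log2 fold change of each gene, Spautin-1 against vehicle; black points with bars are the values from all 4 libraries ± SE, coloured points are other settings. HLA-B and HLA-C stay below 0, at -0.28 and -0.32 without vehicle replicate 2 and -0.89 and -1.04 without vehicle replicate 1. HLA-E and NLRC5 keep a narrow range above 0.

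Levels of different genes were compared per length, as FPKM (CPM divided by the deposited exonic length in kilobases). In vehicle the order was HLA-C (115 ± 39.5 FPKM, SD, n = 2), B2M (37.1 ± 3.74), HLA-E (21.8 ± 0.817), HLA-B (14.3 ± 4.17), TAP2 (7.37 ± 0.132), TAP1 (2.35 ± 0.0181), TAPBP (0.733 ± 0.191), NLRC5 (0.575 ± 0.0112) and HLA-F (0.0820 ± 0.00276). TAPBP and NLRC5 differed by less than the spread of TAPBP. In Spautin-1, NLRC5 (0.877 ± 0.0313) stood above TAPBP (0.596 ± 0.0933), HLA-C was at 69.6 ± 4.39 and HLA-E at 30.5 ± 0.960. The deposited length of HLA-B, 4623 bases, is far longer than its longest coding transcript, 1547 bases. Per length of the longest coding transcript, a choice made after the data were seen, HLA-B was above HLA-E in vehicle (42.6 against 24.5 FPKM) and below it in Spautin-1 (27.8 against 34.3 FPKM).

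The vehicle libraries differed from each other along GC content. Over tested genes averaging 10 CPM or more, the rank correlation of vehicle replicate 2 minus replicate 1 (log2) with transcript GC content was 0.464, against 0.0649 for the 2 Spautin-1 libraries; it is a description across genes that share these libraries. In the most GC-rich of 10 equal bins of these genes, with a median of 62.4% GC, the median difference between the vehicle libraries was 0.32 on the log2 scale. HLA-C (62.7% GC), HLA-B (59.0%) and TAPBP (57.6%) were 1.64, 1.52 and 1.45 times as high in vehicle replicate 2. NLRC5 (58.0% GC) and TAP1 (57.5%) were nearly level, at 1.03 and 1.01 times. With a loess offset on GC content, HLA-C was at -0.56 (adjusted p = 0.00325) and HLA-B at -0.51 (adjusted p = 0.0135), and HLA-E and NLRC5 were at 0.54 and 0.70, all still called. The offset was also run with a vehicle library left out, a setting chosen after the data were seen. HLA-C was then at -0.35 without vehicle replicate 2 and -0.74 without vehicle replicate 1. HLA-B was at -0.28 and -0.71.

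**Figure D4:**
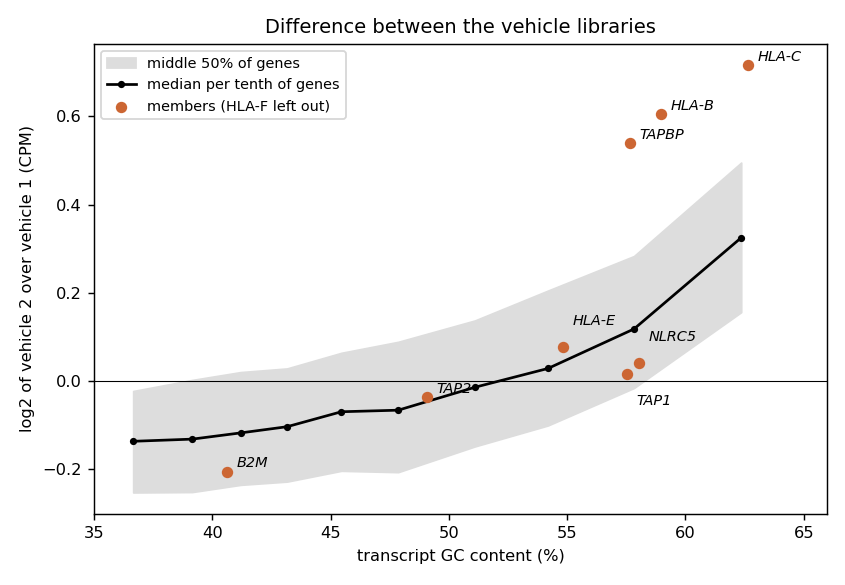
Log2 ratio of vehicle replicate 2 over replicate 1 (y axis) against transcript GC content (x axis); line and band give the median and middle 50% of tested genes in 10 equal bins by GC, orange points the genes of the class I group except HLA-F. HLA-B, HLA-C and TAPBP lie above the band, NLRC5, TAP1 and HLA-E inside it.

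Beyond the 9 genes, 10 lists covered the rest of the pathway and its regulators. Of their 90 tested genes, 19 were higher and 4 lower, and their median log2 fold change was 0.10. The share called in either direction, 25.6%, was close to the background of 22.0%. By direction the calls leaned to higher, while all genes tested split nearly evenly, 11.5% higher and 10.5% lower. This lean was not tested.

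The proteasome genes showed no call. Of 6 immunoproteasome and PA28 genes, which shape the peptides fit for class I, 0 were called by edgeR, DESeq2 or limma-voom and 0 had an unadjusted edgeR p under 0.05. Of the 3 constitutive catalytic subunits 0 were called by these tools, and 1 had an unadjusted edgeR p under 0.05. Among 8 peptidases that trim or destroy peptides outside the endoplasmic reticulum, LNPEP rose 1.94-fold, from 54.5 ± 7.05 to 106 ± 3.60 CPM (adjusted p = 0.000265); it encodes an endosomal aminopeptidase used in cross-presentation. THOP1, a cytosolic oligopeptidase, fell 1.39-fold (adjusted p = 0.0194), a call lost without either Spautin-1 library.

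Of 10 genes of assembly in the endoplasmic reticulum, 2 were higher and 0 lower. ERAP2, an aminopeptidase that trims class I peptides to length, rose 2.22-fold from 10.8 ± 2.71 to 24.1 ± 1.08 CPM (adjusted p = 0.000964). Its levels were 12.8 and 8.93 CPM in vehicle and 24.8 and 23.3 CPM in Spautin-1, well separated. Its relative ERAP1 had a log2 fold change of 0.03 ± 0.13 (adjusted p = 0.893). The chaperone HSPA5 (BiP) rose 1.33-fold, without a call when Spautin-1 replicate 2 was left out (adjusted p = 0.0536). The peptide-loading chaperones CALR and PDIA3 were at 0.11 ± 0.07 and 0.10 ± 0.09, and the tapasin relative TAPBPL at -0.39 ± 0.20, none called (adjusted p of 0.191 to 0.519).

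Among 10 carriers and recycling factors of class I, 3 were higher and 1 lower. BCAP29, of the family that exports membrane proteins, rose 1.63-fold, the coat subunit SEC24D 1.52-fold and the small GTPase ARF6, which recycles class I at the surface, 1.43-fold. EHD1, which returns endocytosed class I to the surface, fell 1.64-fold from 431 ± 87.4 to 263 ± 5.45 CPM (adjusted p = 0.00191). SEC24D was not called without either Spautin-1 library, nor ARF6 without Spautin-1 replicate 2.

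Of 17 other class I genes and class I-like molecules, 11 could be tested, and 2 were higher and 0 lower. Both are ligands of the activating receptor NKG2D. MICA was at 2.02 and 2.80 CPM in vehicle and at 5.84 and 6.87 CPM in Spautin-1, a 2.63-fold rise (adjusted p = 0.00232). MICB rose 2.04-fold, from 2.99 ± 0.315 to 6.10 ± 0.108 CPM (adjusted p = 0.00764). Both sets of libraries were separate. MICA and MICB resemble each other, so reads may be shared between them.

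Transcription factors known to act on class I promoters were examined next. Of 10 interferon and NF-kB factors, 5 were higher and 0 lower, with a median log2 fold change of 0.41; limma-voom and DESeq2 gave the same counts. REL, an NF-kB subunit prominent in B cells, rose 1.47-fold from 169 ± 6.75 to 248 ± 12.1 CPM (adjusted p = 0.00236). STAT2, of the interferon-activated ISGF3 complex, rose 1.92-fold (adjusted p = 0.00718), NFKB2 1.64-fold (0.00777) and IRF2 1.46-fold (0.0222) by edgeR. The fifth, IRF1, which binds the interferon element of class I promoters, had a log2 fold change of 0.59 ± 0.17 (adjusted p = 0.0254); it lies outside the rule for named genes and was chosen after its values were seen. IRF1 and IRF2 were not called without either Spautin-1 library, nor REL without replicate 1 (adjusted p = 0.0505); 2 of the list were called without replicate 1 and 3 without replicate 2. RELA was at 90.1 and 143 CPM in vehicle and at 93.8 and 91.2 CPM in Spautin-1, with its high value in vehicle replicate 2 as for HLA-B and HLA-C.

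Of 11 factors of the module on which NLRC5 acts, 1 was higher and 1 lower. RFXAP, a subunit of the RFX complex, fell 1.66-fold from 14.0 ± 0.582 to 8.45 ± 0.563 CPM (adjusted p = 0.009), a call lost without Spautin-1 replicate 2 (adjusted p = 0.119). CREB1 rose 1.29-fold (adjusted p = 0.0445), which was lost under several settings, among them the GC offset (adjusted p = 0.115).

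Of 11 tested interferon receptors, kinases and inhibitors, 3 were higher and 0 lower. All 3 are inhibitors of signalling, but USP18, another inhibitor in the list, named after its values were seen, was not called and had a log2 fold change of -0.90 ± 0.32 (adjusted p = 0.0616). SOCS3 rose 3.76-fold from 4.97 ± 0.875 to 18.6 ± 1.79 CPM (adjusted p = 3.89e-05), and the phosphatases PTPN2 and PTPN6 rose 1.74-fold and 1.33-fold, PTPN6 without a call with either Spautin-1 library omitted. Among 10 tested genes of the list of negative regulators of class I, EZH2, the methyltransferase of Polycomb complex PRC2, rose 1.48-fold from 420 ± 17.2 to 621 ± 8.22 CPM (adjusted p = 0.000993). IRF2BP2, a corepressor that binds IRF2, rose 2.70-fold, and WWP2, a ubiquitin ligase, fell 1.52-fold, not called without either Spautin-1 library.

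**Figure D5:**
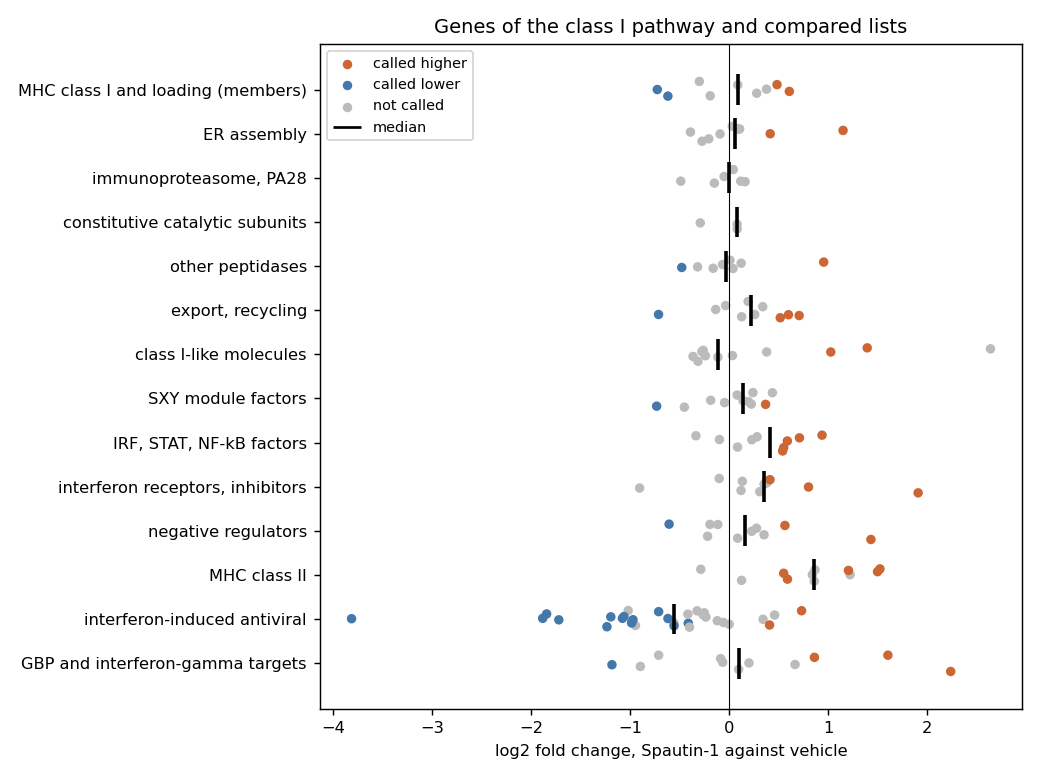
Log2 fold change, Spautin-1 against vehicle, of every tested gene in each list; colours give the edgeR call, the black line the median of the list, and vertical scatter within a row is only for legibility. Calls among interferon-induced antiviral genes lie mostly below 0 and those among MHC class II genes all above it, while the class I group is spread on both sides.

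MHC class II and interferon-induced antiviral genes are the groups nearest to class I in control. Of 11 tested class II genes, 5 were higher and 0 lower (DESeq2: 4 and 0), with a median log2 fold change of 0.86. HLA-DMB, a peptide editor, rose 2.83-fold from 2.12 ± 0.429 to 5.98 ± 0.689 CPM, and the invariant chain CD74 1.51-fold. HLA-DPA1 rose 2.31-fold from 1.07 ± 0.0540 to 2.48 ± 0.370 CPM, on 36 and 43 reads in vehicle. CD74 was not called without Spautin-1 replicate 2, nor HLA-DPA1 without replicate 1 or in DESeq2. The transactivator CIITA, a relative of NLRC5 and the fifth by p, named after its values were seen, rose 1.47-fold from 12.4 ± 1.69 to 18.2 ± 1.56 CPM (adjusted p = 0.0316), a call lost without either Spautin-1 library. HLA-DRA rose 2.88-fold from 1.64 ± 0.201 to 4.72 ± 0.557 CPM. Apart from CD74 and CIITA, no tested class II gene averaged more than 2.12 CPM in vehicle. Of 31 tested interferon-induced antiviral genes, 15 were lower and 2 higher, with a median of -0.56; MX1 fell 3.69-fold from 50.3 ± 2.13 to 13.7 ± 0.494 CPM (adjusted p = 3.4e-06), OAS3 3.29-fold, PARP9 2.35-fold and DTX3L 2.09-fold. The RNA sensors RIGI and IFIH1 rose 1.66-fold and 1.33-fold, RIGI without a call when Spautin-1 replicate 2 was omitted and IFIH1 when either was. Among 11 tested guanylate-binding and interferon-gamma-induced genes, 3 were higher and 1 lower. CD274, which encodes PD-L1, rose 4.72-fold from 10.8 ± 1.07 to 51.2 ± 0.627 CPM, and GBP2 rose 3.04-fold. CXCL10 rose 1.82-fold, without a call when Spautin-1 replicate 1 was left out. CXCL11 fell 2.27-fold, without a call in DESeq2 (adjusted p = 0.0985) or with any 1 library left out. Differences between these lists were not tested.

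Over the 4 libraries, the coding genes outside the group with log2 profiles nearest to NLRC5, among 7032 averaging 10 CPM or more, were RNF13, PPCS and PLCB2 (Euclidean distances of 0.0173, 0.0386 and 0.0392 log2 units). For HLA-B they were MRPS34, IFT20 and TRMU (0.0455, 0.0546 and 0.0568). Likeness over 4 libraries is shared by many genes, and it is given as a description.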

How the data were processed

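Stranded mRNA libraries were prepared from TRIzol-extracted RNA of 4 SU-DHL-2 samples, per the labels' protocols. Trimmomatic 0.36, featureCounts (Subread 1.5.1), edgeR 3.12.1 and GRCh38 are named in the submitters' processing notes; the sources used here name no aligner, annotation release, strand setting or rule for reads with several matches. The authors deposited raw counts of reads per gene. Per the file headers, each gene has coordinates and another column with its exonic length in bases.

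Counts were tested in R 4.3.3 with edgeR 4.0.16 (filterByExpr, minimum count 10; TMM; quasi-likelihood F test, two-sided, Benjamini-Hochberg over 18368 genes), with 2 residual degrees of freedom. CPM are TMM-scaled. SE is the log2 fold change divided by the root of F. GC content is that of the longest GENCODE 29 transcript, found for 95.7% of genes tested. Alternatives were other scalings and filters, DESeq2 1.42.0, limma-voom 3.58.1, loess offsets (span 0.3), a replicate block and leaving out each library. The procedure was tested on simulated data.

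The genes and lists were chosen with earlier results of these data known. Named are all 9 genes, and of each other list the called genes with the smallest p, at most 4 in each direction; uncalled genes of the assembly, peptidase and promoter-factor lists may be named as not called. IRF1, CIITA and USP18 fall outside this rule. Reads were not analysed here.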

Additional observations from a re-analysis of the deposited data

How the results depend on the processing

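HLA-B, HLA-C, HLA-E, NLRC5, HLA-F, TAP1 and TAP2 kept their direction under every alternative run. Counts moved mostly with the libraries used: leaving out 1 library gave 1067 to 2981 genes higher and 780 to 2785 lower, 0 to 2 of the 9 genes higher and 1 to 2 lower, 12 to 28 of the other pathway genes higher and 1 to 9 lower, and -0.72 to -0.12 for the summed heavy chains. The counts without a Spautin-1 library come from fits in which the remaining one is assumed to vary like the vehicle libraries. Without a vehicle library, the remaining one is likewise assumed to vary like the Spautin-1 libraries. The Spautin-1 pair lay closer, with a median absolute log2 difference of 0.092, against 0.171 for the vehicle pair. DESeq2 called 1 of the 9 genes lower, HLA-B, and 2 higher. With the replicate block 2 of the 9 were higher and 2 lower, and 7 other pathway genes were lower; the correlation of deviations of same-numbered libraries was 0.152 over 7788 genes, and the labels give no shared culture or day for them. With the GC offset and without vehicle replicate 1 or 2, 9 other pathway genes were lower each time; without vehicle replicate 2 it left B2M at -0.036 and TAPBP at 0.00877. Without that library alone B2M was at -0.0113, and over the 4 omissions it ran from there to 0.193. The cause was not tested. Depth limited HLA-F.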
